A study of Mus musculus with 20 samples.

Results

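The tubule claudins were followed in kidney RNA of Alport mice, namely Cldn1, Cldn2, Cldn3, Cldn4, Cldn7, Cldn8, Cldn10, Cldn14, Cldn16 and Cldn19. They were taken by gene symbol, by a rule that used no measured values, as 10 of the 47069 Ensembl genes of the count table. Earlier results of these data were known when they were chosen. Total kidney RNA was sequenced as paired-end reads from 20 male mice at 15 weeks of age, all of the strain 129SJ x C57Bl/6J. The WT group held 5 untreated littermates with intact Col4a3, which encodes a collagen chain of the glomerular basement membrane. The other 15 mice were Col4a3-/- and were treated from 5 weeks of age. The Veh group (6 mice) received PBS once weekly under the skin, and the Anti-miR-21 group (6 mice) was injected in the same way with lademirsen, an antisense oligonucleotide against the microRNA miR-21, at a dose of 50 mg/kg in PBS. The ACEi group (3 mice) drank ramipril, an inhibitor of angiotensin-converting enzyme, at 11 mg/L and, per the study's methods, was also injected with PBS. No WT mouse received an injection or a drug, so the effect of either agent in a healthy kidney was not measured.

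Claudins are membrane proteins that meet their counterparts on the neighbouring cell in the tight junction and seal the gap between epithelial cells. Some of them form barriers, and others form pores that let selected ions or water pass between the cells. Each nephron segment carries its own set, so the claudins of a segment determine which ions are reabsorbed by the paracellular route there. Proximal tubules and thick ascending limbs, which reabsorb much by this route, carry pore-forming claudins, whereas the distal nephron and collecting duct carry tighter sets.

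Among the members, 4 lie close to each other in pairs on the genome (GRCm38). Cldn4 lies on chromosome 5 from 134945119 to 134946934 on the minus strand and is separated by 39279 bases from Cldn3, at 134986214 to 134987472 on the plus strand. Cldn1 (chromosome 16, 26356642 to 26371841, minus strand) and Cldn16 (26463135 to 26482765, plus strand) are separated by 91293 bases. Exons of Cldn3 overlap Wbscr25 and exons of Cldn19 overlap Gm12927, both on the opposite strand. Whether reads were counted by strand is not given in the sources used here, so reads of these overlapping genes may be mixed. The promoters of the 4 claudins that rose most between WT and Veh are shown. Each sequence covers the 250 bases before the first annotated RefSeq start (GRCm38.p6) and is written 5′ to 3′ on the strand of the gene. The coordinates are chr5:134946935-134947184 (minus strand) for Cldn4, chr5:134985964-134986213 (plus strand) for Cldn3, chr11:69964529-69964778 (plus strand) for Cldn7 and chr16:26371840-26372089 (minus strand) for Cldn1. Capitals mark matches to 2 motifs, the AP-1 motif TGANTCA and the E-box CACCTG, which Snai and Zeb repressors are known to bind.
Cldn4: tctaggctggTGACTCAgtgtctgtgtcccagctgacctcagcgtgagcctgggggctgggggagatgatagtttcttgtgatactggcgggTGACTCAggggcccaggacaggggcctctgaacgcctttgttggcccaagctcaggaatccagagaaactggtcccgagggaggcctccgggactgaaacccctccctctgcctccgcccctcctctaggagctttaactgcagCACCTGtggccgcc
Cldn3: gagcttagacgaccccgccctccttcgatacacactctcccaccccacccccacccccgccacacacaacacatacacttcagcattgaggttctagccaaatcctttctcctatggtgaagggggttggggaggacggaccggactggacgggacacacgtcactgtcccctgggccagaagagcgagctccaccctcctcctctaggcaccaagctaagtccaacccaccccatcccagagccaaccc
Cldn7: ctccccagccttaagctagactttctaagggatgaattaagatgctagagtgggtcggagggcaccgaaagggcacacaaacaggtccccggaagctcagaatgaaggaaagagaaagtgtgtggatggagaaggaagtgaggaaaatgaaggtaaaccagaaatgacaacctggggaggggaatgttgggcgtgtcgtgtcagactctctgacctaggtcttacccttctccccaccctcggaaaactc
Cldn1: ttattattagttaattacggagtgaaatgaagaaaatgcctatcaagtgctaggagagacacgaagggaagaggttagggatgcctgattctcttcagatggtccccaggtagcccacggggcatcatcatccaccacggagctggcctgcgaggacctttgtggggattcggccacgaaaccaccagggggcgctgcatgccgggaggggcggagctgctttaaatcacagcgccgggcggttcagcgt

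Of these 4 windows, the Cldn4 window held both motifs. It had AP-1 matches that begin 240 and 158 bases before the start, both read as TGACTCA, and an E-box 14 bases before the start. The grainyhead motif AACNNGTT was searched as well, and all motifs were searched on both strands, where they did not overlap in these windows. The 14 windows searched belong to all of the 10 claudins but Cldn8, which had no window and was not searched. Among these 14, no window but that of Cldn4 held an AP-1 match and none held a grainyhead match. E-boxes were also found before a second start of Cldn7 (97 and 57 bases before it) and before a start of Cldn14 (31 bases before it). Among 32817 RefSeq promoter windows of the same length, 6.75% held an AP-1 match, 17.2% an E-box and 3.64% a grainyhead match. The motifs were chosen with the expression results known, and a match is a stretch of letters, not a measured binding site.

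Estimated counts on genes summed to between 28474301 and 29479629 per mouse. The authors gave them per Ensembl gene, and they were rounded, scaled by edgeR's TMM factors and expressed as counts scaled to a common library size (CPM). Col4a3 itself lay at 194 to 238 CPM in WT mice and at 27.9 to 74.9 CPM in Col4a3-/- mice, so each library went with its genotype. Markers of every nephron segment listed were detected in every group, and no marker of any list was at 0 in all mice of a group. TMM factors were 0.77 to 0.85 in WT and 1.12 to 1.26 in Veh, so the scaling itself separated these groups. With library totals in place of TMM, the Veh against WT median over all genes (log2 fold change) moved from 0.07 to 0.65, and values after TMM scaling are given unless another scale is named. Libraries came from 2 flow cells, A and B, and each group had mice on both, with 1 ACEi mouse on A and 1 Anti-miR-21 mouse on B. In 4 mice the summed CPM of urothelium or of adipocyte markers exceeded 50, namely the Veh mice A1, A4 and A9 and the Anti-miR-21 mouse A12. The mice are separate animals with unique names, and all tests ran over 17622 genes that passed a filter on low counts, including all 10 claudins.

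The first question was how the claudins of the tubule differed between Veh and WT kidneys. Veh mice were Col4a3-/- and injected with PBS, and WT mice were untreated, so genotype and injection cannot be told apart here. In Veh compared with WT kidneys, Cldn4, Cldn1, Cldn3 and Cldn7 rose between 4.25-fold and 9.28-fold, and the pore-forming Cldn10 and Cldn2 fell 3.27-fold and 2.08-fold. Cldn16, Cldn19 and Cldn14 of the thick ascending limb rose less, and Cldn8 differed little. With a threshold of 0.05 on the adjusted p of edgeR's quasi-likelihood test, 10 of 10 claudins passed, 7 higher and 3 lower, at a background of 73.0% of all genes tested (39.0% higher and 34.0% lower). This count includes Cldn14, which passed the filter on low counts only through groups in which it was higher, and without it 9 of 9 passed. The CPM of both groups did not overlap for 7 of the 10, against 54.9% of all genes. The median log2 fold change of the 10 was 0.94, against 0.07 over all genes. With so many genes past the threshold, the count by itself does not set the claudins apart from other genes. In bulk tissue, fewer cells of a type and less RNA per cell cannot be told apart, which applies to every level given here.

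**Figure D1:**
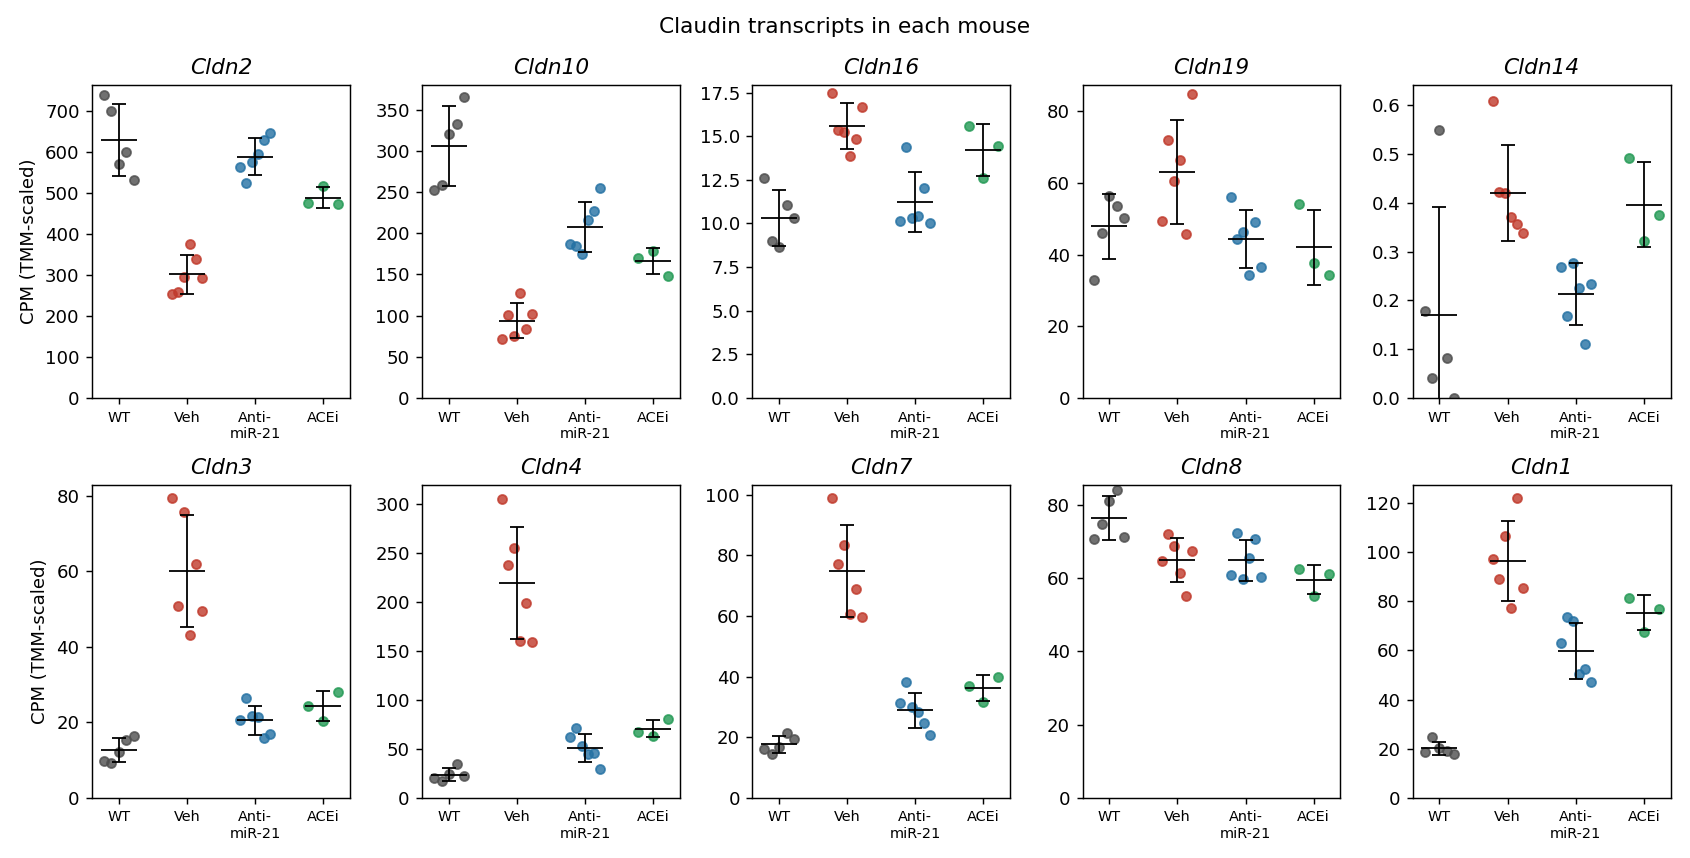
Level of each claudin in each mouse, in CPM after TMM scaling on linear axes that start at 0, for 5 WT, 6 Veh, 6 Anti-miR-21 and 3 ACEi mice (points), with the mean (horizontal line) and the SD (error bars). For Cldn3, Cldn4, Cldn7 and Cldn1 every Veh mouse lies above every WT mouse, and for Cldn2 and Cldn10 every Veh mouse lies below, whereas Cldn8 spans 55.0 to 84.1 CPM over all groups.

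Cldn2, the paracellular channel for cations and water of the leaky proximal tubule, was measured at 740.4, 701, 572, 601 and 532 CPM in the 5 WT mice. The 6 Veh mice ranged from 255 to 377 CPM, with a median of 294. The lowest WT mouse was thus above the highest Veh mouse. The log2 fold change was −1.06 (SE 0.10, edgeR adjusted p = 1.42e-08), and −0.47 with library totals. In the 6 Anti-miR-21 mice Cldn2 ranged from 524 to 646 CPM with a median of 587, and in the ACEi mice it was 477, 519 and 473 CPM. Every treated mouse lay above every Veh mouse. The rise over Veh was 0.96 on the log2 scale (SE 0.10, edgeR adjusted p = 1.66e-07) with lademirsen and 0.69 (SE 0.12, edgeR adjusted p = 1.54e-04) with ramipril. With library totals these values were 0.62 and 0.42, and within flow cell B the ramipril value of 0.57 did not pass (edgeR adjusted p = 0.0758).

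Cldn10 forms a cation pore in the thick ascending limb or an anion pore in the proximal tubule, depending on the isoform made from its alternative first exons. The gene-level counts do not separate the isoforms. WT mice had 253, 259, 320.3, 333 and 365 CPM, and Veh mice ranged from 72.1 to 128 CPM with a median of 92.5. Here too the groups were apart, with a log2 fold change of −1.71 (SE 0.14, edgeR adjusted p = 1.10e-09), and −1.13 with library totals. The Anti-miR-21 mice ranged from 175 to 254 CPM with a median of 201.6, and the ACEi mice had 170.3, 179 and 148 CPM. All 9 treated mice were above the Veh mice. The log2 fold change from Veh was 1.15 (SE 0.13, edgeR adjusted p = 6.15e-07) with lademirsen and 0.82 (SE 0.16, edgeR adjusted p = 4.53e-04) with ramipril, or 0.80 and 0.56 with library totals. Against WT, Cldn10 was still lower by a log2 fold change of −0.56 (SE 0.14, edgeR adjusted p = 0.00299) in Anti-miR-21 mice and −0.88 (SE 0.17, edgeR adjusted p = 3.48e-04) in ACEi mice. The former call was lost with FPKM (−0.31, limma adjusted p = 0.0614) and within flow cell A (−0.35, edgeR adjusted p = 0.0578).

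Markers of the proximal tubule moved in the same directions as Cldn2 and Cldn10. The list of 5 (Slc34a1, Slc5a2, Lrp2, Slc22a6 and Slc5a12, mostly transporters of the brush border) had 5 of 5 lower in Veh than in WT and 5 of 5 higher than in Veh under either treatment, or 4 of 5 for lademirsen with library totals. Its summed level was 11412 to 14710 CPM in WT, 1246 to 3537 in Veh, 6206 to 10377 in Anti-miR-21 and 6524 to 8551 in ACEi mice. These directions were not particular to the proximal tubule. The lists of the thick ascending limb and of intercalated cells each had 5 of 5 lower in Veh than in WT. With lademirsen 5 of 5 of each were higher than in Veh, and with ramipril 2 of 5 and 4 of 5. With library totals these lists had 4 and 3 lower in Veh, 3 and 3 higher with lademirsen, and 1 and 3 with ramipril. The part of any of these cells in the results on Cldn2 and Cldn10 was not tested.

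Other claudins of the thick ascending limb presented a different pattern from that of Cldn10. Cldn16 and Cldn19, partners in the pore through which this segment reabsorbs calcium and magnesium, were both higher in Veh than in WT. Cldn16 was 12.6, 8.98, 8.66, 11.0 and 10.3 CPM in WT and ranged from 13.9 to 17.5 CPM, with a median of 15.3, in Veh. These ranges did not overlap, and the log2 fold change was 0.59 (SE 0.11, edgeR adjusted p = 6.45e-05), and 1.18 with library totals. In Anti-miR-21 mice Cldn16 ranged from 10.0 to 14.4 CPM with a median of 10.4, a log2 fold change from Veh of −0.47 (SE 0.10, edgeR adjusted p = 5.94e-04), and −0.81 with library totals. In ACEi mice it was 15.6, 12.6 and 14.4 CPM, and the difference from Veh did not pass (−0.13, 95% interval −0.40 to 0.13). With library totals this difference was −0.40 and passed (edgeR adjusted p = 0.0277), as it did with FPKM (−0.39, limma adjusted p = 0.0243). Against WT, Cldn16 was higher in ACEi mice (0.46, SE 0.13, edgeR adjusted p = 0.00658), and the difference for Anti-miR-21 mice did not pass (0.12, 95% interval −0.11 to 0.35). The latter passed with library totals (0.37, edgeR adjusted p = 0.0207) and with FPKM (0.34, limma adjusted p = 0.0246), so whether Cldn16 differed from WT under lademirsen depended on the scaling. The ACEi call was lost within flow cell B (0.40, edgeR adjusted p = 0.111).

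Cldn19 was 33.0, 45.9, 56.3, 53.5 and 50.3 CPM in WT and ranged from 45.7 to 84.6 CPM with a median of 63.3 in Veh. Both groups overlapped, and the log2 fold change of 0.40 (SE 0.17, edgeR adjusted p = 0.0407) rested on single mice. With library totals it was 0.98. The call was lost without any of the WT mice A3, A6 and A18 or the Veh mice A4, A16 and A20, with edgeR adjusted p from 0.0522 to 0.127. It was also lost within either flow cell alone. Anti-miR-21 mice ranged from 34.4 to 55.9 CPM with a median of 45.3, and ACEi mice had 53.9, 37.6 and 34.4 CPM, so both treated groups overlapped with Veh. The log2 fold change from Veh was −0.51 (SE 0.16, edgeR adjusted p = 0.0108) with lademirsen and −0.59 (SE 0.20, edgeR adjusted p = 0.0261) with ramipril. With library totals these were −0.83 and −0.85. The lademirsen call was lost within flow cell A (−0.36, edgeR adjusted p = 0.107) and without A1, A4, A9 and A12 (edgeR adjusted p = 0.0637). The ramipril call was lost without A4, A20, A13 or A23, with adjusted p from 0.0618 to 0.140, within flow cell B (edgeR adjusted p = 0.0669) and without A1, A4, A9 and A12 (edgeR adjusted p = 0.0578).

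Cldn14, which blocks the cation pore of the thick ascending limb when the calcium-sensing receptor is active, was near the limit of detection. Its estimated counts were 4, 1, 13, 2 and 0 in WT, 12 to 22 in Veh, 3 to 8 in Anti-miR-21 and 15, 9 and 11 in ACEi mice. It passed the filter only through the groups in which it was higher. The 13 counts of the WT mouse A14 lay within the Veh range, and the log2 fold change between Veh and WT was 1.29 (SE 0.52, edgeR adjusted p = 0.0328). This call was lost without A3, A6, A17 or A18 of the WT group or without A1 of the Veh group, with adjusted p from 0.0509 to 0.0852, and the value was 0.83 within flow cell A, 2.97 within flow cell B and 1.87 with library totals. Between Anti-miR-21 and Veh the CPM did not overlap, and the log2 fold change of −0.96 (SE 0.47, edgeR adjusted p = 0.0850) did not pass. It passed with library totals (−1.29, edgeR adjusted p = 0.0199), in a fit of these groups alone (edgeR adjusted p = 0.00666) and with FPKM at both offsets (limma adjusted p = 0.00363 and 0.0131).

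Between WT and Veh, markers of the thick ascending limb moved against Cldn16 and Cldn19. Umod, Slc12a1, Kcnj1, Egf and Ptger3 were 5 of 5 lower in Veh than in WT, or 4 of 5 with library totals. Compared with Veh, 5 of 5 were higher with lademirsen and only 2 of 5 with ramipril (3 and 1 with library totals). Their summed level was 7011 to 8128 CPM in WT, 2118 to 4930 in Veh, 4889 to 6501 in Anti-miR-21 and 3731 to 5491 in ACEi mice. Cldn16 and Cldn19 were thus higher in Veh kidneys, which had lower levels of the marker genes of their own segment. The part of that segment in their levels was not tested.

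Cldn3, Cldn4 and Cldn7, claudins of the distal nephron and collecting duct, were each at least 4.25-fold higher in Veh than in WT. Cldn4, which seals junctions against sodium and conducts chloride together with Cldn8, was 20.3, 17.2, 24.2, 34.1 and 22.5 CPM in WT. In Veh it ranged from 159 to 306 CPM with a median of 218.4. Every Veh mouse exceeded the highest WT mouse. The log2 fold change was 3.21 (SE 0.23, edgeR adjusted p = 1.77e-10), the largest of the 10, and 3.80 with library totals. In Anti-miR-21 mice Cldn4 ranged from 29.5 to 71.7 CPM with a median of 49.2, and ACEi mice had 67.6, 63.6 and 80.3 CPM. No treated mouse reached the lowest Veh mouse. Cldn4 fell by 2.11 on the log2 scale (SE 0.20, edgeR adjusted p = 8.80e-08) with lademirsen and by 1.64 (SE 0.26, edgeR adjusted p = 7.22e-05) with ramipril. It remained above WT by 1.11 (SE 0.21, edgeR adjusted p = 3.70e-04) and 1.57 (SE 0.25, edgeR adjusted p = 3.37e-05), respectively.

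Cldn3, a sealing claudin, was 9.80, 9.31, 12.1, 15.4 and 16.4 CPM in WT and 43.0 to 79.4 CPM, with a median of 56.4, in Veh. Cldn7, found along the basolateral side as well as in junctions of distal cells, was 16.3, 14.3, 16.8, 21.3 and 19.4 CPM in WT and 59.6 to 99.1 CPM, with a median of 73.0, in Veh. Both were apart between the groups, at log2 fold changes of 2.25 (SE 0.19, edgeR adjusted p = 1.24e-09) for Cldn3 and 2.09 (SE 0.15, edgeR adjusted p = 2.65e-10) for Cldn7, or 2.84 and 2.67 with library totals. Anti-miR-21 mice ranged from 15.9 to 26.4 CPM for Cldn3 and from 20.9 to 38.1 CPM for Cldn7. ACEi mice had 24.4, 20.3 and 28.1 CPM of Cldn3, and 37.1, 31.6 and 39.9 CPM of Cldn7. All 9 treated mice were below all 6 Veh mice for both genes. Lademirsen lowered Cldn3 by a log2 fold change of −1.55 (SE 0.17, edgeR adjusted p = 2.61e-07) and Cldn7 by −1.37 (SE 0.14, edgeR adjusted p = 1.38e-07). For ramipril the values were −1.31 (SE 0.21, edgeR adjusted p = 1.03e-04) and −1.05 (SE 0.18, edgeR adjusted p = 1.28e-04).

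Cldn8, the partner of Cldn4 in the collecting duct, did not share this rise. It was 70.8, 74.8, 81.2, 84.1 and 71.4 CPM in WT and ranged from 55.0 to 72.1 CPM with a median of 66.1 in Veh. The log2 fold change was −0.24 (SE 0.07, edgeR adjusted p = 0.00759) after TMM scaling but 0.35 with library totals and with FPKM, so its direction depended on the scaling. In Anti-miR-21 mice Cldn8 ranged from 59.7 to 72.5 CPM, and the difference from Veh had a 95% interval of −0.15 to 0.15 on the log2 scale. In ACEi mice it was 62.6, 55.2 and 61.1 CPM, with an interval of −0.31 to 0.06 for the difference from Veh. With library totals both differences passed, at −0.34 (edgeR adjusted p = 0.00190) for lademirsen and −0.39 (edgeR adjusted p = 0.00558) for ramipril, as they did with FPKM (−0.34 and −0.38). Against WT the calls of lower Cldn8 in treated mice were not made with library totals (0.0078 for Anti-miR-21 and −0.046 for ACEi).

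Cldn1, a barrier claudin known in the kidney from the parietal cells of Bowman's capsule, was 18.6, 24.6, 20.3, 19.1 and 17.95 CPM in WT. In Veh it ranged from 77.4 to 122 CPM with a median of 93.1, again without overlap. The log2 fold change was 2.26 (SE 0.14, edgeR adjusted p = 2.53e-11), and 2.85 with library totals. Anti-miR-21 mice had 47.2 to 73.5 CPM, with a median of 57.7, and ACEi mice had 81.4, 67.5 and 77.0 CPM. The Anti-miR-21 mice were all below the Veh mice, whereas the ACEi and Veh mice overlapped. Cldn1 fell by 0.69 on the log2 scale (SE 0.12, edgeR adjusted p = 7.26e-05) with lademirsen. With ramipril the difference was −0.35 (SE 0.15, edgeR adjusted p = 0.0672) and did not pass. It passed with library totals (−0.63, edgeR adjusted p = 0.0101), upper-quartile scaling (−0.43, edgeR adjusted p = 0.0348), DESeq2 (adjusted p = 0.0458) and FPKM (−0.60, limma adjusted p = 0.0146), and without the Veh mouse A16 (edgeR adjusted p = 0.0486). Against WT, Cldn1 was still higher by 1.57 (SE 0.14, edgeR adjusted p = 1.83e-08) in Anti-miR-21 and by 1.90 (SE 0.15, edgeR adjusted p = 6.24e-09) in ACEi mice.

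Several marker lists were higher in Veh than in WT, as were Cldn3, Cldn4, Cldn7 and Cldn1, whereas the principal cell list was not. The injured tubule list (Havcr1, Lcn2, Krt20, Vcam1 and Spp1) was 5 of 5 higher in Veh than in WT, and its summed level was 561 to 647 CPM in WT, 10433 to 15711 in Veh, 3599 to 8826 in Anti-miR-21 and 6888 to 7369 in ACEi mice. Most of this sum was Spp1, with a mean of 11740.5 CPM in Veh. Compared with Veh, 4 of 5 were lower with lademirsen and only 2 of 5 with ramipril (5 and 3 with library totals). The principal cells of the collecting duct had 3 of 6 markers lower and none higher in Veh, or 1 lower and 1 higher with library totals, at summed levels of 458 to 818 CPM in WT and 281 to 645 in Veh. Urothelium, the lining of the renal pelvis, had 4 of 5 markers higher in Veh and 5 of 5 lower than in Veh under either treatment. Its summed level was 2.23 to 35.1 CPM in WT, 10.7 to 191 in Veh, 1.69 to 8.41 in Anti-miR-21 and 1.70 to 6.72 in ACEi mice. Fibroblast and macrophage markers were each 5 of 5 higher in Veh, at summed levels of 2488 to 3184 and 575 to 695 CPM in Veh against 111 to 283 and 125 to 138 CPM in WT. When the mice A1, A4, A9 and A12 were left out together, Cldn4 differed between Veh and WT by 2.87, Cldn3 by 2.03, Cldn7 by 1.84 and Cldn1 by 2.24 on the log2 scale. The claudins that passed were then 8 (5 higher, 3 lower), where 11694 of 17263 genes were called. Cldn14 (edgeR adjusted p = 0.168) and Cldn19 (edgeR adjusted p = 0.0555) did not pass. The part of injured tubule cells and of the other cell types in these results was not tested.

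Within flow cell A, the log2 fold change between Veh and WT was 3.62 for Cldn4, 2.70 for Cldn3, 2.40 for Cldn7, 2.31 for Cldn1, −1.21 for Cldn2 and −1.72 for Cldn10. Within flow cell B the values were 2.50, 1.54, 1.56, 2.13, −0.76 and −1.60 in the same order of genes. The directions were thus the same on both flow cells, with smaller differences on B for each of the 6 genes. For Cldn16 the values were 0.66 and 0.52, and for Cldn19 0.35 and 0.54. The Cldn19 call was lost within flow cell A (edgeR adjusted p = 0.153) and within flow cell B (edgeR adjusted p = 0.0508).

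The second question was what each treatment did to the claudins in the Col4a3-/- kidney. With lademirsen, 8 of 10 claudins passed the threshold against Veh, 2 higher and 6 lower, at a background of 59.2% of all genes (28.8% higher and 30.5% lower). With ramipril 6 of 10 passed, 2 higher and 4 lower, at a background of 40.1% (21.0% higher and 19.1% lower). With library totals 10 passed with lademirsen (2 higher, 8 lower), where 12320 of 17622 genes were called. On that scale 9 passed with ramipril (2 higher, 7 lower), where 9296 of 17622 genes were called. Each called claudin moved in the direction opposite to its difference between Veh and WT. Both treatment comparisons and the comparison with WT share the same 6 Veh mice, so these opposite directions are not independent of each other. The groups did not overlap in CPM for 7 and 5 of the 10 claudins, against 36.4% and 38.6% of all genes. The 7 with lademirsen include Cldn14, which passed the filter on low counts only through groups in which it was higher. Median log2 fold changes of the 10 were −0.60 and −0.24, against −0.04 and −0.05 over all genes. Within flow cell A, Cldn4 differed between Anti-miR-21 and Veh by −2.29, Cldn3 by −1.72, Cldn7 by −1.51 and Cldn10 by 1.37. Within flow cell B, Cldn4 differed between ACEi and Veh by −1.28, Cldn3 by −1.04, Cldn7 by −0.81 and Cldn10 by 0.60.

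**Figure D2:**
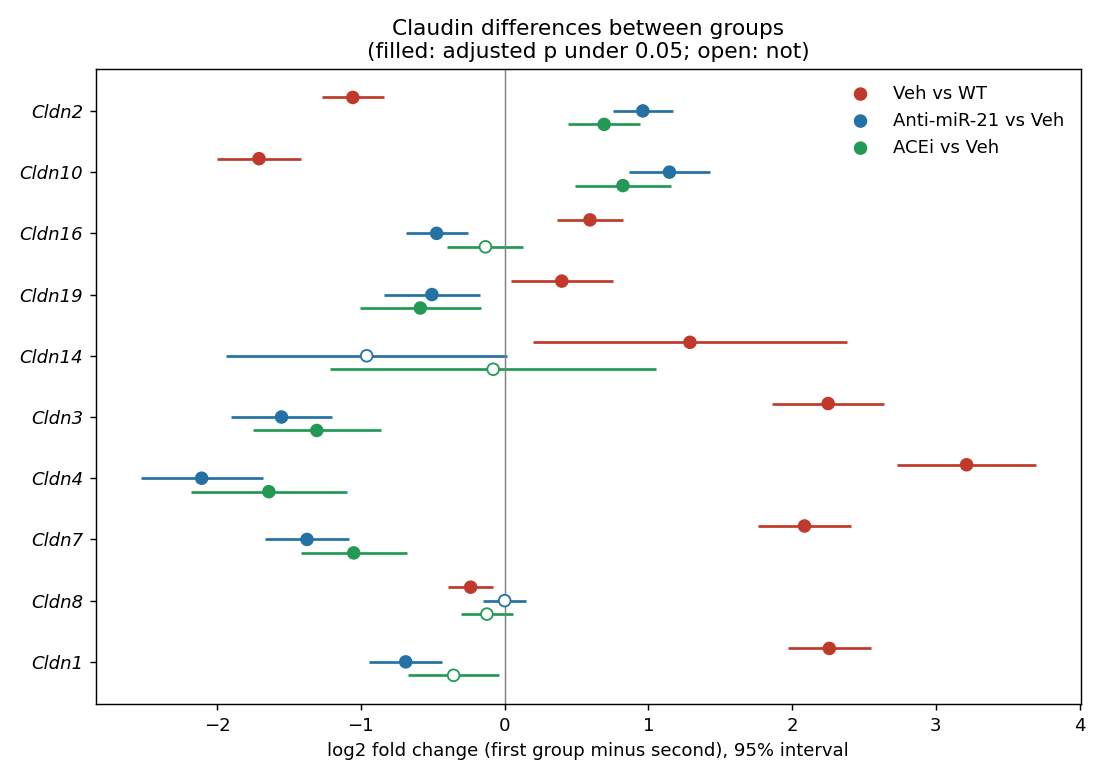
Log2 fold change of each claudin (horizontal axis, first group minus second) in Veh against WT, Anti-miR-21 against Veh and ACEi against Veh, with 95% intervals as lines. Filled points passed an adjusted p of 0.05 and open points did not. For every claudin with filled points in several comparisons the treatment values lie on the other side of 0 from the Veh value, from −2.11 for Cldn4 to 1.15 for Cldn10 with lademirsen. Values are after TMM scaling, on which Cldn8 is lower in Veh, while with library totals it is higher.

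On a scale on which the mean of the Veh mice is 0% and the mean of the WT mice is 100% in log2 CPM, the treated mice lay at different places for different claudins. Cldn2 lay at 91.9% ± 10.4 (SD, n = 6) in Anti-miR-21 and at 66.7% ± 6.94 (SD, n = 3) in ACEi mice. These places are after TMM scaling, and that of Cldn2 depended on it. With library totals its log2 fold change was −0.47 in Veh against WT. Its rise over Veh was then 0.62 with lademirsen, more than that fall, and 0.42 with ramipril. Cldn10, Cldn3, Cldn4 and Cldn7 lay close to each other, at means from 66.1% to 68.2% in Anti-miR-21 and from 49.3% to 56.9% in ACEi mice. Cldn1 was farthest from WT among these genes, at 30.8% ± 12.2 (SD, n = 6) and 15.2% ± 6.15 (SD, n = 3). No such place is given for Cldn8, Cldn14, Cldn16 and Cldn19, for which the difference between Veh and WT was small or uncertain.

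Between both treatments, edgeR's test called 0 of 10 claudins, at a background of 0.584% of all genes, and DESeq2 also called 0. At an unadjusted p under 0.05 edgeR gave 3 of the 10 claudins and 2562 of all genes. The 3 claudins were Cldn16 (log2 fold change Anti-miR-21 minus ACEi −0.34, edgeR adjusted p = 0.221), Cldn1 (−0.33, edgeR adjusted p = 0.305) and Cldn2 (0.27, edgeR adjusted p = 0.320). The CPM did not overlap for 2 of the 10, Cldn2 and Cldn14, against 8.99% of all genes. Cldn14 passed the filter on low counts only through groups in which it was higher, which leaves Cldn2 alone in this count. The 95% interval for Cldn4 ran from −0.96 to 0.03, for Cldn7 from −0.68 to 0.03 and for Cldn10 from −0.02 to 0.67. Differences of such sizes remain possible with 3 ACEi mice, and the missing calls do not show that the treatments act alike.

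Compared with WT, 6 of 10 claudins passed in Anti-miR-21 mice (4 higher, 2 lower, at a background of 43.7%, with 23.9% higher and 19.8% lower) and 8 of 10 in ACEi mice (5 higher, 3 lower, at a background of 47.7%, with 25.2% higher and 22.5% lower). The CPM did not overlap with WT for 1 claudin (Cldn1) in Anti-miR-21 mice and for 7 in ACEi mice, against 23.8% and 46.1% of all genes. With library totals the splits were 5 higher and 1 lower, and 6 higher and 1 lower. On that scale 8717 and 9351 of 17622 genes were called, and the median log2 fold changes over all genes were 0.26 and 0.31. Cldn1, Cldn3, Cldn4 and Cldn7 were higher than WT in both treated groups. Cldn2 did not pass in Anti-miR-21 mice (−0.09, 95% interval −0.31 to 0.12, and 0.15 with library totals). In ACEi mice it was lower than WT (−0.36, edgeR adjusted p = 0.0239), a call that was lost without A3, A6, A11 or A23, with adjusted p from 0.0517 to 0.0885. With library totals the Cldn2 value was −0.050 (edgeR adjusted p = 0.723) and with FPKM −0.036 (limma adjusted p = 0.870), and the call was also lost with no filter (edgeR adjusted p = 0.0560) and within flow cell B (edgeR adjusted p = 0.419).

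Levels of different genes can be set side by side only per length, for which the FPKM values of the authors were used. The FPKM entry of Cldn3 is marked by the authors as confounded with another gene, and that of Cldn2 carries no exon length in their annotation. In WT kidneys Cldn10 and Cldn2 made up most of the summed FPKM of the 10 claudins, with shares of 47.0% ± 5.56 (SD, n = 5) and 35.1% ± 6.39 (SD, n = 5). In Veh kidneys their shares were 17.6% ± 4.46 and 19.5% ± 3.59 (SD, n = 6). Cldn4 had the largest share there, 23.6% ± 4.96 (SD, n = 6), against 2.21% ± 0.50 (SD, n = 5) in WT. Cldn7, Cldn3 and Cldn1 went from 2.25%, 1.68% and 1.06% in WT to 11.0%, 9.27% and 5.83% in Veh. Cldn8 had 5.52% ± 0.37 (SD, n = 5) in WT and 5.41% ± 0.55 (SD, n = 6) in Veh, within the spread between mice. Cldn19 (3.64% and 5.11%) and Cldn16 (1.51% and 2.64%) held smaller shares, and Cldn14 (0.03% and 0.07%) held almost none. In Veh the ranges of Cldn4 (17.6% to 30.6%), Cldn2 (15.0% to 24.5%) and Cldn10 (12.3% to 23.9%) overlapped, whereas in WT the share of Cldn2 in every mouse was at least 28.4% and no other claudin but Cldn10 exceeded 5.88%.

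**Figure D3:**
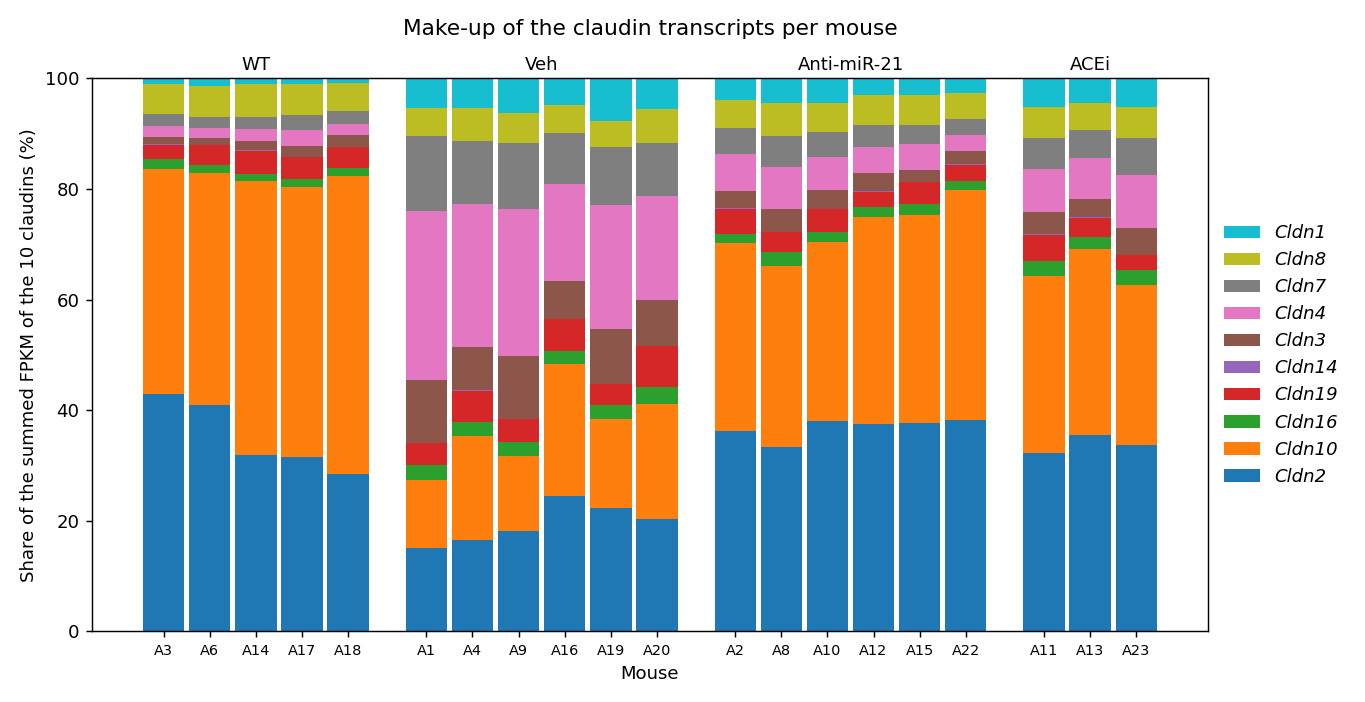
Share of each claudin in the summed FPKM of the 10 claudins (vertical axis, percent), with 1 bar for each of the 20 mice, grouped as WT, Veh, Anti-miR-21 and ACEi. Cldn2 and Cldn10 fill most of the WT bars, Cldn4 holds 17.6% to 30.6% of the Veh bars, and its share in the treated mice is at most 9.66%.

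After treatment Cldn10 and Cldn2 again held the largest shares. In Anti-miR-21 mice they had 36.0% ± 3.55 and 36.9% ± 1.89 (SD, n = 6), and Cldn4 had 5.44% ± 1.70. In ACEi mice the shares were 31.5% ± 2.36 and 33.8% ± 1.68 (SD, n = 3), and Cldn4 had 8.25% ± 1.23. The share of Cldn4 did not overlap between treated mice (at most 9.66%) and Veh mice (at least 17.6%).

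Ratios of claudins within a library do not depend on the scaling between libraries. Of such ratios, 4 pairs were compared over 4 comparisons with exact two-sided permutation tests, adjusted over the 16 tests. For Cldn4 and Cldn8, the partners of the collecting duct, the ratio of counts was 0.23 to 0.40 in WT mice, 2.36 to 4.72 in Veh, 0.49 to 1.01 in Anti-miR-21 and 1.08 to 1.32 in ACEi mice. No 2 groups overlapped. The ratio was 10.9-fold higher in Veh than in WT (log2 difference 3.45, exact permutation p = 0.00433, adjusted p = 0.0173) and 4.35-fold lower in Anti-miR-21 than in Veh (−2.12, exact permutation p = 0.00216, adjusted p = 0.0173). These are the smallest p-values the designs allow. Against 3 ACEi mice no p below 0.0238 can be reached. The differences of ACEi from Veh (−1.49) and of Anti-miR-21 from ACEi (−0.64) both had this exact p, with an adjusted p of 0.0519, so they did not pass. Within flow cells A and B, the difference between Veh and WT was 3.81 and 2.80.

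The neighbours Cldn3 and Cldn4 did not rise in equal proportion. The ratio of Cldn3 to Cldn4 was 0.45 to 0.73 in WT and 0.21 to 0.31 in Veh, a log2 difference of −0.96 (exact permutation p = 0.00433, adjusted p = 0.0173). In Anti-miR-21 mice it was 0.33 to 0.57, higher than in Veh by 0.59 on the log2 scale (exact permutation p = 0.00216, adjusted p = 0.0173). Cldn4 thus changed more than its neighbour in both directions. In ACEi mice the ratio was 0.32 to 0.36, without overlap with Veh (0.32 on the log2 scale, exact permutation p = 0.0238, adjusted p = 0.0519). Without A1, A4, A9 and A12 the differences of these 4 called ratio tests were 3.22, −1.86, −0.85 and 0.43 in the order given, and none passed (adjusted p = 0.114), with 3 Veh mice left.

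The ratio of Cldn10 to Cldn2 was lower in Veh than in WT by 0.66 on the log2 scale (exact permutation p = 0.0260, adjusted p = 0.0519), which did not pass. It was 0.34 to 0.69 in WT and 0.25 to 0.39 in Veh, so the groups overlapped. For Cldn16 and Cldn19 no comparison passed (adjusted p from 0.169 to 0.946), and the ratio ran from 0.15 to 0.42 over all 20 mice.

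**Figure D4:**
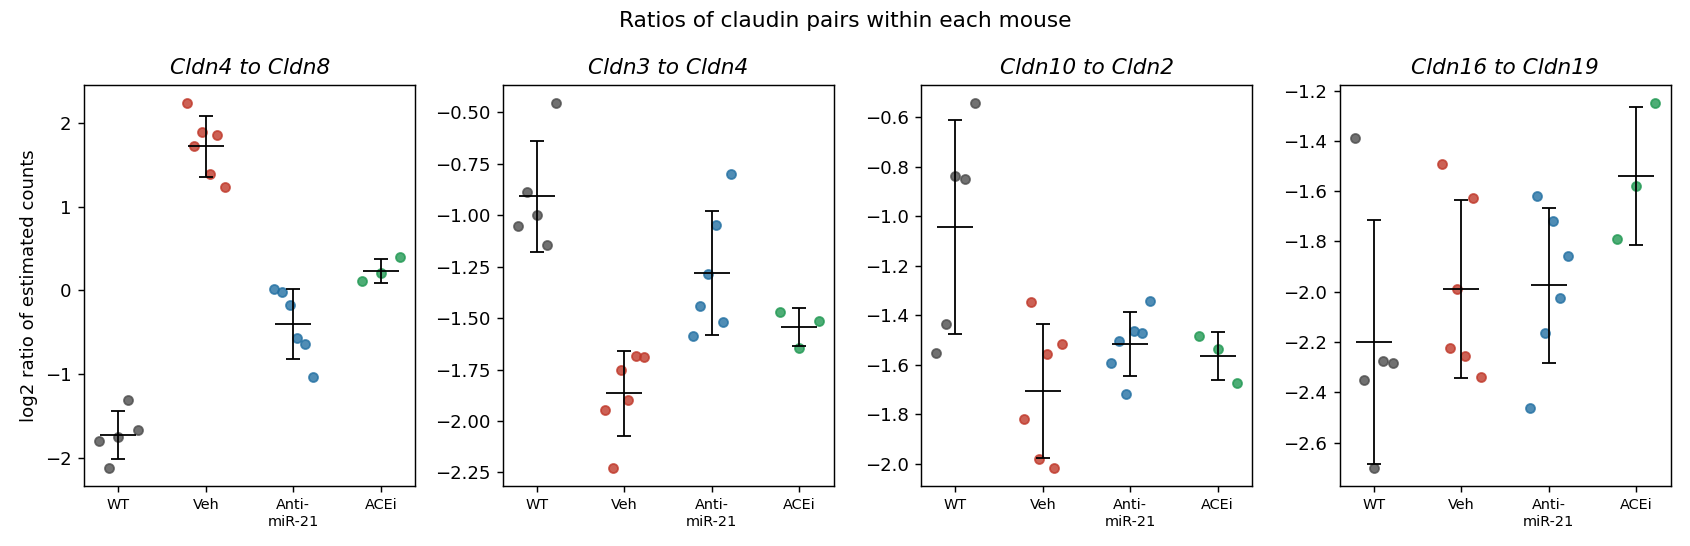
Log2 ratio of the estimated counts of 4 pairs of claudins in each mouse (points) by group, with the mean (horizontal line) and the SD (error bars), on axes that do not start at 0. The Cldn4 to Cldn8 ratio separates all 4 groups, with group means of −1.73, 1.72, −0.40 and 0.24 in WT, Veh, Anti-miR-21 and ACEi mice, whereas the Cldn16 to Cldn19 ratio overlaps between all groups.

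Mice of the same group also differed from each other, and some claudins varied together. Over the deviations of all 20 mice from their group means in log2 CPM, Cldn4 and Cldn7 had a Pearson r of 0.95, Cldn3 and Cldn7 of 0.87, and Cldn3 and Cldn4 of 0.76. Cldn1 and Cldn10 had r = −0.74, and Cldn2 had r = −0.72 with Cldn7. Cldn16 and Cldn19 were not related (r = −0.09) in spite of their shared pore. These values are descriptions, and mice share sequencing runs, scaling and tissue composition within them. Among 12570 protein-coding genes, the genes most like Cldn4 were Cldn7 (r = 0.95), Cd24a (0.93) and Cd9 (0.91), and those most like Cldn7 were Cldn4, Cd9 (0.94) and Sfn (0.93). For Cldn3 they were Plp2 (0.91), Wfdc2 (0.90) and Zdhhc15 (0.89). For Cldn1 they were Klf6 (0.93), Tcaf1 (0.92) and Fchsd1 (0.91).

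Among the genes most like Cldn2 were Psmd2 (r = 0.92) and Hnf4a (0.90), the latter a transcription factor of the proximal tubule. Those most like Cldn10 were Slc6a13 (0.91), Mfap3l (0.90) and Crot (0.90). For Cldn19 they were Dixdc1 (0.92), Sorl1 (0.91) and Tnn (0.89). The closest genes were less close for Cldn8 (Mal 0.78, Stx6 0.76 and Tspan12 0.76), Cldn16 (Nrm 0.77, Il17rb 0.68 and Tmem138 0.67) and Cldn14 (Lama3 0.86, Agpat4 0.78 and Pck2 0.78), the last of which rests on few counts.

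Of the other 23 genes named as claudins, 10 passed the filter on low counts, and 4 were higher and 3 lower in Veh than in WT (5 and 2 with library totals), near the background of 73.0% of all genes called. With library totals the background was 14307 of 17622 genes. Cldn6, a claudin of embryonic epithelia, was higher by 1.76 on the log2 scale (SE 0.21, edgeR adjusted p = 2.20e-07), and Cldn5, the claudin of endothelium, by 0.68 (SE 0.13, edgeR adjusted p = 7.37e-05). Cldn12 was lower by a log2 fold change of −0.83 (SE 0.09, edgeR adjusted p = 5.03e-08). With lademirsen Cldn6 was lower than in Veh (−1.14) and Cldn12 higher (0.59).

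Among 22 partners of claudins in the junction, which include scaffold proteins that bind their tails and other junction membrane proteins, 10 were higher and 6 lower in Veh than in WT, at the background of 73.0% of all genes (39.0% higher and 34.0% lower). This list was sensitive to scaling, with 17 higher and 1 lower on library totals, on which 14307 of 17622 genes were called. Its median log2 fold change after TMM scaling was −0.01 against 0.07 over all genes. Jam2, a junctional adhesion molecule, was higher by 1.89 on the log2 scale (SE 0.20, edgeR adjusted p = 3.72e-08). The ZO scaffolds Tjp1 and Tjp3 were higher by 0.94 (SE 0.10, edgeR adjusted p = 2.19e-08) and 0.89 (SE 0.14, edgeR adjusted p = 7.82e-06). Mpp5, a polarity protein, had −0.85 (SE 0.09, edgeR adjusted p = 2.87e-08). Compared with Veh, Jam2, Tjp1 and Tjp3 were lower with lademirsen (−0.98, −0.46 and −0.86) and with ramipril (−0.91, −0.35 and −0.91).

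Of 8 regulators of claudins, 5 were higher and 3 lower in Veh than in WT (5 and 2 with library totals), against a background of 73.0% of all genes called (14307 of 17622 genes with library totals). The repressors Snai1, Zeb2 and Snai2, which bind E-boxes, were higher by 1.87 (SE 0.17, edgeR adjusted p = 3.14e-09), 1.52 (SE 0.15, edgeR adjusted p = 1.13e-08) and 1.45 (SE 0.26, edgeR adjusted p = 4.20e-05) on the log2 scale. Klhl3, which targets WNK kinases for degradation, was lower by a log2 fold change of −1.27 (SE 0.20, edgeR adjusted p = 7.47e-06). With lademirsen Snai1, Zeb2 and Snai2 were lower than in Veh (−0.90, −0.59 and −0.68) and Klhl3 higher (0.98). Cldn4, whose promoter window holds an E-box as do windows of Cldn7 and Cldn14, was also higher in Veh than in WT. A link between the repressors, the E-boxes and the claudin levels was not tested. Which cells carried each transcript was not measured.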

How the data were processed

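Kidney RNA of 20 mice was analysed in the groups WT (5), Veh (6), Anti-miR-21 (6) and ACEi (3) of the labels. The authors used the OmicSoft aligner and the mouse build GRCm38, and deposited estimated counts (expected counts) of 47069 Ensembl genes, not normalized between libraries, of which 29.1% of the positive values are not whole. They also deposited FPKM values, normalized for length and library total, on a gene model that is mostly UCSC genes, and the number of alignments per library as a count (70004591 to 73294858). Of the per-sample columns, 3 match no mouse of the labels and were not used. The label of the RNA extraction names adipose tissue, whereas the tissue label is kidney.

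Counts were rounded, filtered with filterByExpr (minimum count 10, minimum total 15), scaled by TMM and fitted in edgeR 4.0.16 (R 4.3.3) over all mice at once with quasi-likelihood F tests, with Benjamini-Hochberg adjustment over 17622 genes and a threshold of 0.05. Symbols were matched for 98.8% of genes. Log2 CPM used a prior count of 2, and 95% intervals came from the SE and the moderated degrees of freedom. Ratios used counts plus 0.5 and exact permutation tests (scipy 1.17.1). Alternatives were DESeq2 1.42.0, limma 3.58.1 on log2(FPKM + 1) and log2(FPKM + 0.1) over 21460 entries, library totals, upper-quartile scaling, no filter, at least 10 counts in every mouse, a flow cell term, the mice of a single flow cell, fits restricted to the 2 groups of a comparison and leaving out single mice. Leaving out mice with summed urothelium or adipocyte markers over 50 CPM was chosen after seeing the data. Steps were tested on simulated data.

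The members and lists were chosen with earlier results of these data known. All 10 members are named. Of each list at most 4 genes with the largest absolute log2 fold change between Veh and WT were named, among those past the threshold whose mean log2 CPM reached 1, and for each member the 3 protein-coding genes most like it. Of these, 1 is not reported here. Motifs were searched in 250 bases before RefSeq starts. Markers of distal convoluted tubule, intercalated cells, podocytes and endothelium were also counted, with 2 of 3 lower and 1 higher, 5 of 5 lower, 3 of 4 higher, and 2 of 5 higher and 1 lower in Veh than in WT, and adipocyte markers with 3 of 4 higher. P-values measure the spread between these mice.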

Additional observations from a re-analysis of the deposited data

Results flagged for a closer look

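A value of Cldn14 stood apart from its group. In the Veh mouse A1 its log2 CPM was −0.56, and the other 5 Veh mice lay between −1.30 and −1.03. Of 42 groups of values examined (log2 CPM of the 10 claudins and 4 log2 ratios, in the groups with at least 4 mice), this was the only 1 in which Dixon's 95% limit was passed, and chance passes it in about 1 of 20. The value rests on 22 estimated counts, against 12 to 15 in the other Veh mice. A1 also had the highest level of urothelium markers, 191 CPM in sum, and the part of this in the value was not tested.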

How the results depend on the processing

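Over 6 comparisons, the alternatives other than leaving out 1 mouse gave the log2 fold change of a claudin the same direction and side of the threshold in 579 cases, ended a call in 28, added a call in 21 and turned the direction in 24. Leaving out 1 mouse gave 571, 19, 3 and 7. The causes were not tested. Cldn8, Cldn19, Cldn2 and Cldn14 turned direction. For Cldn8 between Veh and WT, library totals gave 0.35 and FPKM 0.35 and 0.36 (offsets 1 and 0.1). For Cldn8 between Anti-miR-21 and Veh, library totals gave −0.34, upper-quartile scaling −0.078, the stricter filter −0.020, the flow cell term −0.0045, DESeq2 −0.0080 and FPKM −0.34 and −0.35, with −0.033 to 0.053 on leaving out single mice. Against WT, Cldn8 in Anti-miR-21 mice gave 0.0078 with library totals and 0.0096 and 0.0098 with FPKM, Cldn2 gave 0.15, 0.16 and 0.16, and Cldn19 gave 0.14, 0.077 and 0.081. Cldn19 in ACEi mice gave 0.13 against WT with library totals, and between Anti-miR-21 and ACEi −0.043 to 0.30 on leaving out single mice. For Cldn14 between ACEi and Veh, the flow cell term gave 0.085, flow cell B alone 0.20, leaving out A1, A4, A9 and A12 0.19, and leaving out single mice −0.26 to 0.085. Between Anti-miR-21 and WT, Cldn14 gave −0.31 on flow cell A alone. The stricter filter left Cldn14 untested.

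The count of claudins past the threshold between ACEi and WT was 5 within flow cell B, where 4999 of 17903 genes were called. On leaving out single mice the counts were 8 to 10 for Veh against WT, 8 for Anti-miR-21 and 5 to 7 for ACEi against Veh, 0 between treatments, and 6 to 7 and 7 to 9 against WT. Of the log2 ratios, Cldn4 to Cldn8 was 3.81 within flow cell A and 2.80 within B for Veh against WT, and within B −1.48 for Anti-miR-21 and −1.16 for ACEi against Veh. Cldn10 to Cldn2 was −0.18 for Anti-miR-21 against Veh within B, and 0.20 within A and −0.21 within B for Anti-miR-21 against ACEi. Flow cell B held 1 Anti-miR-21 mouse and flow cell A held 1 ACEi mouse, so the values of those groups there each rest on a single mouse. None of the ratios within a flow cell was tested. Cldn16 to Cldn19 for Anti-miR-21 against Veh was −0.048 with FPKM. Without A1, A4, A9 and A12, Cldn4 to Cldn8 was 3.22 (Veh against WT) and −1.86 (Anti-miR-21 against Veh), and Cldn3 to Cldn4 −0.85 and 0.43, each with an exact permutation adjusted p of 0.114 over fewer mice. On leaving out single mice, Cldn10 to Cldn2 ranged from −0.79 to −0.54 for Veh against WT and from −0.0058 to 0.089 between treatments, and Cldn16 to Cldn19 from −0.058 to 0.11 for Anti-miR-21 against Veh. No paired analysis was possible because each mouse carries its own name and the replicate numbers are only accession order. Depth limits Cldn14 alone among the claudins, and 3 ACEi mice limit every comparison with that group.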
